A study of Mus musculus with 6 samples.

Results

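Dazl, Ddx4, Dnd1, Nanos1, Nanos2 and Nanos3 encode RNA-binding regulators of germ cells. These 6 genes were taken by name from the 26567 genes to which transcripts could be paired, and were followed by gene and by transcript in RNA-seq of mouse cap mesenchyme, the embryonic kidney tissue that holds the nephron progenitors. The cells had been sorted from C57BL/6 kidneys at embryonic day 18.5. All embryos carried Six2.Cre, in which the promoter of the nephron progenitor transcription factor Six2 drives Cre recombinase, together with conditional alleles of Dnmt1, the methyltransferase that copies DNA methylation to the new strand at replication. There were 3 libraries of the genotype Dnmt1 +/-, called heterozygous here, and 3 of the genotype Dnmt1 -/-, called knockout. The deletion was therefore limited to cells with a history of Six2 promoter activity, both groups had lost at least 1 Dnmt1 allele, and embryos with intact Dnmt1 or without Cre were not analysed here. Whether embryos were pooled for a library, or shared a litter, is not in the labels, so the p-values speak for the spread among these libraries alone.

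Germ cells depend on control of RNA after transcription. DAZL, of the DAZ family, binds the 3' untranslated regions of germ cell mRNAs and promotes their translation. DDX4, the mouse homologue of Vasa, is a DEAD-box RNA helicase of germ granules. DND1 binds mRNA together with NANOS proteins, zinc finger proteins that bring the CCR4-NOT deadenylase to their targets. NANOS3 protects migrating primordial germ cells, NANOS2 promotes the male germ cell fate, and NANOS1 is also known from the nervous system. In somatic tissues the promoters of many germ cell genes, Dazl and Ddx4 among them, carry DNA methylation. Methylation itself was not measured in the data used here.

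The sequence just upstream of the annotated start sites shows how unlike the genes are in the substrate of Dnmt1, the CG dinucleotide. The 250 bases before the start site are printed 5' to 3' on the strand of the gene, from RefSeq with build GRCm38.p6, and capitals mark each CG dinucleotide. They are shown for the 5 of the 6 genes matched in the promoter table because their CG content can be set beside the RNA levels that follow.
Dazl, chr17:50293621-50293870 (minus strand): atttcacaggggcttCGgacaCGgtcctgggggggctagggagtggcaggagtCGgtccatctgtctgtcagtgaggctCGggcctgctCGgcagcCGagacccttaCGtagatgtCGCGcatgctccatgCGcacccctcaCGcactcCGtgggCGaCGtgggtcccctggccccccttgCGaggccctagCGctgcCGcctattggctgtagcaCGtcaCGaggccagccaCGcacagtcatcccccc
Ddx4, chr13:112652311-112652560 (minus strand): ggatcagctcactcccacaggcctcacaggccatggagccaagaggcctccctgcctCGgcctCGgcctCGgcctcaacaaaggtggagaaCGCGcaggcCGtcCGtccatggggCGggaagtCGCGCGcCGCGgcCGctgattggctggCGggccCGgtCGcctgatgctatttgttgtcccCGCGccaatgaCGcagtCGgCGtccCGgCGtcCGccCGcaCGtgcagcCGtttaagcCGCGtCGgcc
Nanos1, chr19:60755737-60755986 (plus strand): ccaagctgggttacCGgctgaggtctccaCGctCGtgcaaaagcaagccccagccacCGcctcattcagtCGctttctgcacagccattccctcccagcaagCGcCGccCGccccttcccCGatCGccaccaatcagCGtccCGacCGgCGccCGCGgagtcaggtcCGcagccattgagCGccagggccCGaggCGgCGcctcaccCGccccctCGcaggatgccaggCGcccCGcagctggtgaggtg
Nanos2, chr7:18987274-18987523 (plus strand): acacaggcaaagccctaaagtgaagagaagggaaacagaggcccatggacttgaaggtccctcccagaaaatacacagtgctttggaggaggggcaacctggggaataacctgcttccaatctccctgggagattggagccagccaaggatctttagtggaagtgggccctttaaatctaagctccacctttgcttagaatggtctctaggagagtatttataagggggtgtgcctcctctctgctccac
Nanos3, chr8:84176553-84176802 (minus strand): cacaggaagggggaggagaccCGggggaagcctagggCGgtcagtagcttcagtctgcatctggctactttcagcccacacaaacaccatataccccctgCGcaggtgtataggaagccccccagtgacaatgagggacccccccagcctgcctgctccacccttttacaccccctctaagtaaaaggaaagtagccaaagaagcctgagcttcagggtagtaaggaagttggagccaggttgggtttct
The Dazl window held 20 CG dinucleotides, the Ddx4 window 31 and the Nanos1 window 25. The Nanos2 window held 0 and the Nanos3 window 3. Over all 32851 RefSeq windows of that length the median was 6, with quartiles of 2 and 16. At least as many CG dinucleotides as in Dazl were found in 17.9% of windows, as in Nanos1 in 10.7% and as in Ddx4 in 5.19%, while 71.0% of windows held at least as many as Nanos3. The Ddx4 window lay inside the annotated span of the gene, which reaches further upstream.

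**Figure D1:**
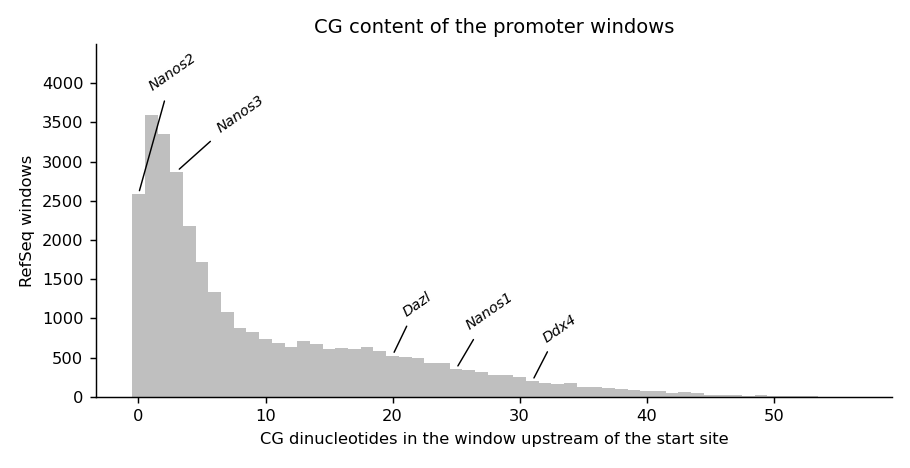
Number of CG dinucleotides (x axis) in the 250 bases upstream of the start site over 32851 RefSeq windows (y axis, grey bars), with 5 of the 6 genes marked. Dazl, Nanos1 and Ddx4 lie in the CG-rich tail at 20, 25 and 31, and Nanos2 and Nanos3 at 0 and 3.

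The same windows were searched on both strands for CACGTG (an E-box, the kind of site that MAX and MGA bind), GGCGGG (a GC box) and TCCCGC (the core of an E2F site). In Ddx4 there was 1 match to CACGTG, ending 23 bases before the start site, 2 matches to GGCGGG and 1 to TCCCGC on the opposite strand. The TCCCGC match shared bases with a GGCGGG match. The Nanos1 window held 2 matches to GGCGGG on the opposite strand. None of the 3 motifs was spelled out in the windows of Dazl, Nanos2 or Nanos3. Of all windows, 6.02% held CACGTG, 32.5% GGCGGG and 16.9% TCCCGC.

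The libraries held between 46741667 and 61585484 kallisto estimated counts, of which 92.4% to 92.82% fell on transcripts paired with a gene. Values per gene are given as CPM, estimated counts scaled to a common library size after TMM normalisation, and levels of different genes are compared only as TPM, which also divides by transcript length. A total of 3 counts corresponded to between 0.051 and 0.0662 normalised CPM, a limit that covers counting error only. Dnmt1 had 40.0, 52.4 and 51.7 CPM in heterozygous replicates 1 to 3 against 20.9, 18.6 and 14.9 CPM in the knockout replicates, with no overlap. These values cover 1 whole transcript. Reads from outside the deleted exons, or from cells without the deletion, could not be separated within them. Summed markers of other kidney cells were higher in knockout replicates 1 and 2 than in any heterozygous library. The summed level of 10 endothelium markers was 29.0 to 41.5 CPM in the heterozygous group against 214, 89.8 and 48.9 CPM in knockout replicates 1 to 3. The corresponding sums were 161 to 219 CPM against 503, 253 and 210 CPM for 6 stroma markers, and 44.0 to 82.2 CPM against 288, 148 and 68.9 CPM for 8 ureteric bud markers. By gene, 1 endothelium marker (3 without knockout replicate 1), 0 stroma markers and 1 ureteric bud marker were called higher by edgeR. The count without knockout replicate 1 is from an analysis chosen after the data were seen. Over all genes tested, 4.92% were called higher. At an unadjusted edgeR p under 0.05, 4, 0 and 2 were higher, and by DESeq2 also 4, 0 and 2. The summed level of the cap mesenchyme markers was 1910 to 2010 CPM against 1370 to 1670 CPM. In bulk samples such as these, fewer cells of a type and less RNA per cell cannot be told apart.

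Dazl, Ddx4 and Dnd1 rose in the knockout, by very different amounts. Dazl went from a trace to a level above that of Six2, Ddx4 from a trace to between 4.99 and 9.82 CPM, and Dnd1 to 2.49 times its heterozygous mean. Nanos1 and Nanos3 were present in both groups and did not pass the test, and Nanos2 was near 0 throughout. In counts, 5 of the 6 genes passed the low-count filter, 3 of these were called higher and 2 did not pass by edgeR's quasi-likelihood test, with p-values adjusted by Benjamini and Hochberg's method over all genes and a threshold of 0.05. Of all 16989 genes tested, 6.85% were called, 4.92% higher and 1.92% lower. Dazl and Ddx4 passed the filter only through the knockout libraries, so the share of tested members that rose is not support for a difference.

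Dazl had 18, 4 and 0 estimated counts in heterozygous replicates 1 to 3 and 12559, 15704 and 11972 in knockout replicates 1 to 3. Normalised, these were 0.35, 0.0681 and 0 CPM against 266, 303 and 235 CPM. Every knockout library stood far above every heterozygous library, and the 3 knockout libraries lay close together. Knockout libraries wholly above the heterozygous ones were found for 14.8% of all genes tested, and for 3 of the 6 genes described here. The log2 fold change of Dazl was 10.86 ± 0.49 (SE; edgeR, adjusted p = 0.000105). Because heterozygous replicate 1 held 18 of the 22 heterozygous counts, it set the size of the fold: without it the log2 fold change was 12.68 ± 0.33 (SE; edgeR, adjusted p = 1.76e-06). The call for Dazl held under all 18 alternatives, including each library left out in turn.

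On the TPM scale Dazl reached 104, 109 and 87.6 TPM in the knockout libraries, which ranked it 1072nd, 1028th and 1226th among the 20164 to 20521 genes above 0 in those libraries. That is within the upper 6.06% of detected genes. Six2, the progenitor gene whose promoter drove Cre, had 41.8, 53.8 and 50.7 TPM in the same libraries, below Dazl in each. In the heterozygous libraries Six2 had 61.2 to 69.8 TPM while Dazl was between 0 and 0.151 TPM.

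The Dazl values are those of the 1 analysed transcript, ENSMUST00000010736, of 2942 bases. The gene lies on chromosome 17 from 50279393 to 50293620 (GRCm38.p6), on the minus strand. None of the 2912 stretches of 31 bases in this transcript occurred in an annotated coding transcript of another gene. A further annotated Dazl transcript with another first exon was not analysed here, so use of that start site could not be followed.

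Ddx4 had 7, 24 and 2 estimated counts in the heterozygous group against 254, 509 and 254 in the knockout group. Normalised, these were 0.136, 0.408 and 0.0441 CPM against 5.39, 9.82 and 4.99 CPM. The groups did not overlap, and knockout replicate 2 was the highest library. The log2 fold change was 5.03 ± 0.64 (SE; edgeR, adjusted p = 0.00259). Heterozygous replicate 2 held most of the heterozygous counts, and without it the log2 fold change was 6.15 ± 0.57 (SE; edgeR, adjusted p = 0.000324). The call held under all 18 alternatives. In ratios of mean CPM, Ddx4 was 34.3 times and Dazl 1920 times as high in the knockout as in the heterozygous group, and the difference between these ratios was not tested.

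Ddx4 lies on chromosome 13 from 112598333 to 112652633 (GRCm38.p6), on the minus strand. Its 2 analysed transcripts, ENSMUST00000099166 of 2849 bases and ENSMUST00000075748 of 2771 bases, share all exons but 1. In knockout replicates 1, 2 and 3 the longer transcript took 100%, 93.6% and 100% of the Ddx4 counts. With 9 heterozygous counts on the shorter transcript and 24 on the longer, the share in that group could not be read. The longer transcript alone had a log2 change of 5.53 ± 1.24 (SE) and did not pass the transcript test (edgeR, adjusted p = 0.122), though it did without heterozygous replicate 2 (edgeR, adjusted p = 0.00949), the only heterozygous library in which kallisto assigned counts to it. Among 50137 transcripts tested, 1.79% were called, 1.59% higher.

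Dnd1 had 89, 92 and 58 estimated counts in the heterozygous group against 187, 251 and 131 in the knockout group. These were 1.73, 1.57 and 1.28 CPM against 3.97, 4.84 and 2.57 CPM, without overlap, with means of 1.53 ± 0.228 against 3.79 ± 1.14 CPM (SD, n = 3 each). Unlike Dazl and Ddx4, Dnd1 thus had more than a trace of counts in every heterozygous library. The coding transcript took 45.3% to 56.3% of these, and it alone was searched for stretches shared with other genes. The log2 fold change was 1.31 ± 0.30 (SE; edgeR, adjusted p = 0.0246). The call was close to the threshold: it was lost without heterozygous replicate 2, heterozygous replicate 3 or knockout replicate 2 (log2 fold changes of 1.33, 1.2 and 1.11; edgeR, adjusted p = 0.085, 0.0953 and 0.116).

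The Dnd1 counts were split by kallisto over 3 transcripts, the fully spliced coding transcript ENSMUST00000061522 and ENSMUST00000155827 and ENSMUST00000124038, both annotated as retaining an intron. The coding transcript had 0.869, 0.649 and 0.578 CPM in the heterozygous and 3.08, 3.22 and 2.17 CPM in the knockout libraries, without overlap. Knockout libraries wholly above the heterozygous ones were found for 11.4% of transcripts tested. Among the 3, the coding transcript alone passed the transcript test (log2 fold change 2.0 ± 0.29, SE; edgeR, adjusted p = 0.0188). Its call was lost without heterozygous replicate 2 or 3 and without knockout replicate 1 or 2 (edgeR, adjusted p up to 0.102). The transcripts with a retained intron had log2 fold changes of 0.61 ± 0.62 and -0.53 ± 1.04 (SE; edgeR, adjusted p = 0.716 and 0.866). As a share of Dnd1 counts, the coding transcript took 56.3%, 45.3% and 49.4% in the heterozygous group against 82.1%, 68.8% and 90.3% in the knockout group. The mean share differed by 30.1 percentage points without overlap, and the 2-sided exact permutation p of 0.1 is the smallest that 3 libraries against 3 can give. Dnd1 lies on chromosome 18 from 36763671 to 36766214 (GRCm38.p6). Its end overlaps Wdr55 on the opposite strand by 38 bases in the older annotation NCBIM37, and strandedness is not given in the sources used here. Of the 1421 stretches of 31 bases in the coding transcript, 6 also occurred in Wdr55, which had a log2 change of 0.18 ± 0.10 (SE; edgeR, adjusted p = 0.335).

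**Figure D2:**
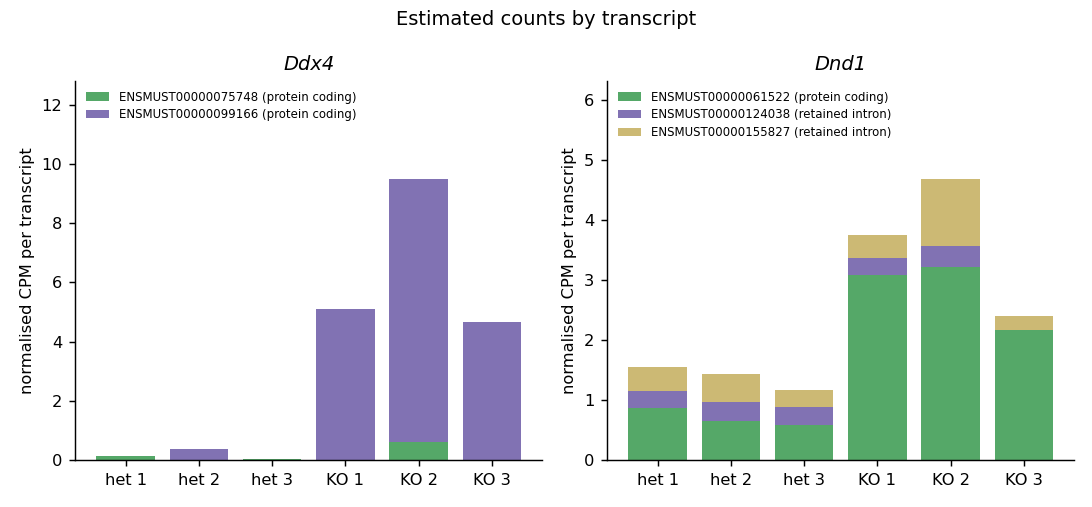
Normalised CPM per transcript (y axis, stacked bars) of Ddx4 and Dnd1 in the 3 heterozygous (het) and 3 knockout (KO) libraries. The longer Ddx4 transcript takes nearly all of the knockout signal, and for Dnd1 the coding transcript rises from between 0.578 and 0.869 CPM to between 2.17 and 3.22 CPM while the transcripts with a retained intron overlap between groups.

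Across the knockout libraries, Dazl, Ddx4 and Dnd1 shared the order replicate 2, replicate 1, replicate 3, on the CPM scale as on the TPM scale. The endothelium, stroma and ureteric bud marker sums had the order replicate 1, replicate 2, replicate 3, and the part of those cells in the results was not tested. Without knockout replicate 1 the log2 fold changes were 10.88, 5.16 and 1.29, all called (edgeR, adjusted p = 0.000812, 0.00268 and 0.0485). Y-linked genes summed to 332 and 268 CPM (before TMM) in heterozygous replicates 1 and 3 and to 168 CPM in knockout replicate 2, taken as male. The others, at 7.66 to 9.83 CPM, were taken as female. Whether a library pooled embryos of both sexes is not known. With sex as a covariate the log2 fold changes were 10.97, 5.03 and 1.37, again all called (edgeR, adjusted p = 0.000504, 0.0125 and 0.0406). Within females, heterozygous replicate 2 had 1.57 CPM of Dnd1 and the knockout libraries 3.97 and 2.57 CPM. Within males, the heterozygous libraries had 1.73 and 1.28 CPM and the knockout library 4.84 CPM.

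None of the 3 Nanos genes was called. Nanos1, on chromosome 19 from 60755987 to 60759914 (GRCm38.p6), had 4.14, 2.36 and 2.85 CPM in the heterozygous and 3.12, 1.99 and 3.03 CPM in the knockout libraries, with overlap. Its log2 fold change was -0.20 ± 0.29 (SE; edgeR, adjusted p = 0.722), and its sign turned without heterozygous replicate 1. Nanos3, on chromosome 8 from 84173733 to 84176552 (GRCm38.p6), had 0.778, 1.62 and 1.08 CPM in the heterozygous and 1.46, 1.27 and 1.75 CPM in the knockout libraries, also with overlap. Its log2 fold change was 0.36 ± 0.34 (SE; edgeR, adjusted p = 0.569). At these counts, 40 to 213 per library over both genes, the standard errors leave room for modest changes in either direction.

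Nanos2, on chromosome 7 from 18987524 to 18988962 (GRCm38.p6), was barely detected. It had 1, 1 and 0 estimated counts in the heterozygous group against 5, 1 and 3 in the knockout group, and it did not pass the low-count filter. The ratio of the summed counts, 2 against 9, was 4.67 after scaling for depth, with an exact 95% binomial counting interval of 0.966 to 44.4 that includes no change. A difference in Nanos2 was not detectable at this depth.

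**Figure D3:**
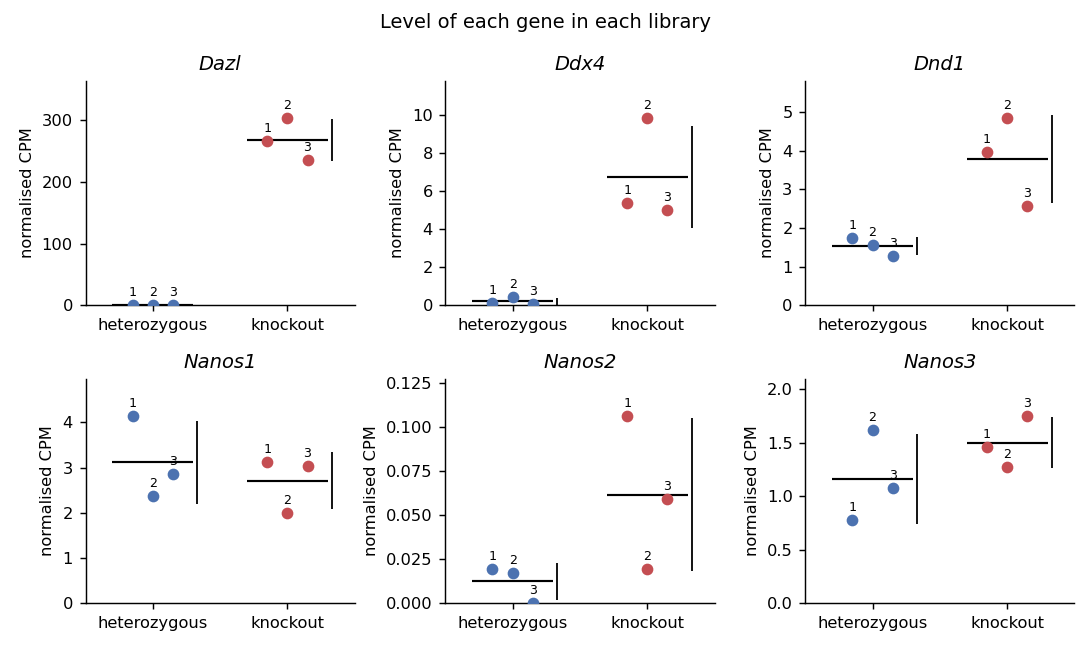
Normalised CPM (y axis, from 0, scaled separately for each gene) in the 3 heterozygous (blue) and 3 knockout (red) libraries, numbered by replicate, with the group mean as a horizontal line and the SD as a vertical bar cut at 0. Dazl, Ddx4 and Dnd1 show no overlap between groups and have knockout replicate 2 highest, and the groups overlap for Nanos1, Nanos2 and Nanos3.

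Ordered by level per transcript length in the heterozygous group, Nanos3 came first (2.3 ± 0.765 TPM), followed by Dnd1 (1.18 ± 0.243 TPM) and Nanos1 (0.947 ± 0.329 TPM; SD, n = 3 each). Ddx4 (0.0827 ± 0.0762 TPM), Dazl (0.0593 ± 0.0805 TPM) and Nanos2 (0.01 ± 0.00883 TPM) stood at the foot. Dnd1 and Nanos1 overlapped across libraries, as did Ddx4 with Dazl and Dazl with Nanos2. In the knockout group Dazl led at 100 ± 11.3 TPM. Dnd1 (2.9 ± 0.773 TPM), Nanos3 (2.76 ± 0.478 TPM) and Ddx4 (2.59 ± 0.938 TPM) overlapped with one another. Nanos1 (0.754 ± 0.199 TPM) and Nanos2 (0.0467 ± 0.0345 TPM) came last, each below the gene before it in every library.

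**Figure D4:**
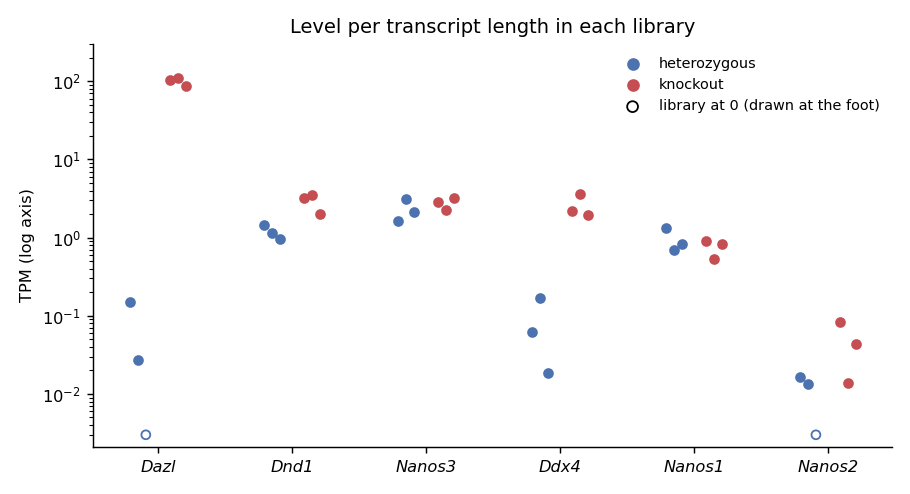
TPM (y axis, log scale) of the 6 genes in the 3 heterozygous (blue) and 3 knockout (red) libraries, ordered by knockout mean, with libraries at 0 drawn open at the foot. Dazl moves from at most 0.151 TPM to between 87.6 and 109 TPM, and the groups overlap for Nanos3, Nanos1 and Nanos2.

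Of 10 neighbouring coding genes that were tested, 2 were called higher and 8 did not pass. Over all genes tested, 4.92% were called higher and 1.92% lower. Next to Ddx4, Slc38a9, an amino acid transporter 8465 bases away in NCBIM37, had a log2 change of -0.41 ± 0.13, and Il31ra, a cytokine receptor 17670 bases away, of -1.40 ± 0.60 (SE; edgeR, adjusted p = 0.0896 and 0.213). Next to Dnd1, Hars, the histidyl-tRNA synthetase 315 bases away, had a log2 change of -0.01 ± 0.08 (SE; edgeR, adjusted p = 0.974). Eif3a, a translation initiation factor 1202 bases from Nanos1, had a log2 change of -0.17 ± 0.08, and Zswim4, 34125 bases from Nanos3, of 0.01 ± 0.10 (SE; edgeR, adjusted p = 0.25 and 0.976). Plcl2, 215947 bases from Dazl, rose from 2.03 to 4.16 CPM (log2 fold change 1.03 ± 0.24, SE; edgeR, adjusted p = 0.0298). Nova2, a neuronal RNA-binding protein 21841 bases from Nanos2, rose from 1.2 to 2.94 CPM (log2 fold change 1.30 ± 0.33, SE; edgeR, adjusted p = 0.0462).

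Genes for the proteins with which DAZL, DND1 and the NANOS proteins work were expressed in both groups. Of 17 genes for Pumilio proteins, the CCR4-NOT complex and its adaptors, 1 was called higher, 2 lower and 14 did not pass. The median log2 fold change was -0.13 against -0.003 over all genes tested. For this list and those below, the shares called over all genes tested were 4.92% higher and 1.92% lower. Btg2, an antiproliferative partner of the deadenylase, rose from 424 to 487 CPM across the heterozygous libraries to 565 to 714 CPM across the knockout libraries. Btg1, its paralogue, and Cnot6l, a catalytic subunit, fell (log2 fold changes of -0.48 ± 0.10 and -0.45 ± 0.10, SE; edgeR, adjusted p = 0.0193 and 0.0273). Without knockout replicate 1, an analysis chosen after the data were seen, 0 of the 17 were called lower. Of 6 DAZL cofactors, which included the poly(A)-binding protein Pabpc1 and the DAZ-associated protein Dazap1, 0 were called by edgeR, DESeq2 or limma voom, and 0 had an unadjusted edgeR p under 0.05. Pabpc1 had a log2 change of -0.09 ± 0.08 and Dazap1 of -0.17 ± 0.11 (SE).

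Of 16 other RNA-binding genes of germ cells, 11 were tested, 2 rose and 9 did not pass, with a median log2 fold change of 0.18. None was called lower by edgeR, against 2 at an unadjusted p under 0.05 and 1 by DESeq2. Rbm44, a protein of germ cell intercellular bridges, had 0.445, 0.467 and 0.53 CPM in the heterozygous and 3.53, 2.37 and 1.91 CPM in the knockout libraries (log2 fold change 2.44 ± 0.34, SE; edgeR, adjusted p = 0.00136). Rbm46, which is needed for meiosis, had 1.2, 1.1 and 1.05 against 4.38, 3.26 and 2.57 CPM (log2 fold change 1.60 ± 0.28, SE; edgeR, adjusted p = 0.00688). Meioc, annotated here as Gm1564 and a partner of the RNA helicase Ythdc2 in meiotic entry, had a log2 change of 1.47 ± 0.39, and Ythdc2 of -0.78 ± 0.23 (SE; edgeR, adjusted p = 0.0522 and 0.0724). Neither passed. Boll, the other autosomal DAZ family gene of the mouse, was chosen here after its values were seen. It fell under the filter with 6 heterozygous and 41 knockout counts in all, without overlap. Lin28a, also under the filter, went the other way without overlap, with 33.7 heterozygous and 8 knockout counts. Patl2 had 10 and 7 counts, Zar1 5.2 and 6.2 and Rbmxl2 1 and 1, with overlapping groups.

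Among 10 mRNAs reported as DAZL targets in germ cells, 8 were tested, 2 rose and 6 did not pass (median log2 fold change 0.12). The 2, Tex19.1 and Sycp1, passed the low-count filter only through the knockout libraries. The share of tested targets that rose is therefore not support for a difference. None was called lower by edgeR or DESeq2, and 1 was lower at an unadjusted edgeR p under 0.05. The list does not include Ddx4, also a reported target. Tex19.1, a germline gene that restrains transposable elements, had 0.0972, 0.17 and 0.11 CPM in the heterozygous and 45.0, 56.3 and 43.0 CPM in the knockout libraries. Sycp1, of the synaptonemal complex, had 0 counts throughout the heterozygous group and 0.651, 0.485 and 0.302 CPM in knockout replicates 1 to 3. Taking 3 counts per heterozygous library as the limit, it was at least 8.19-fold higher. Sycp3, of the same complex, had a log2 change of 0.16 ± 0.37 (SE; edgeR, adjusted p = 0.828). The lists were chosen with earlier results of these data known.

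Among 16 repressors that act on germline promoters, the deleted gene Dnmt1 was called lower and 15 did not pass (median log2 fold change -0.08). None was called higher by edgeR or DESeq2, and 1, Uhrf1, was higher at an unadjusted edgeR p under 0.05. Uhrf1, which guides Dnmt1 to newly replicated DNA, had a log2 change of 0.23 ± 0.08, the histone methyltransferase gene Setdb1 of -0.14 ± 0.07 and Ehmt2 of -0.21 ± 0.09 (SE; edgeR, adjusted p = 0.116, 0.288 and 0.196).

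**Figure D5:**
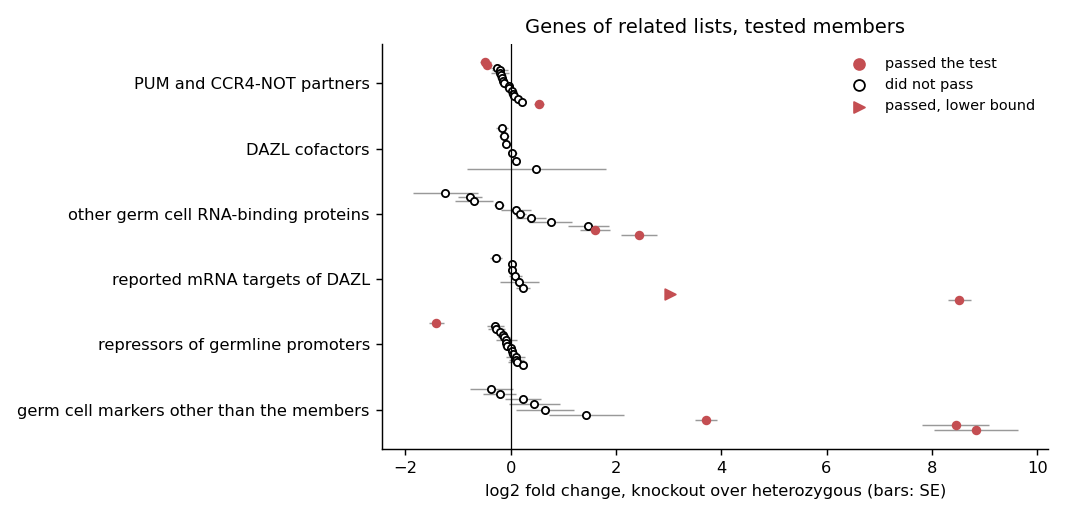
Log2 fold change, knockout over heterozygous, with SE (x axis) for the tested genes of 6 lists; filled points passed the edgeR test, open points did not, and the triangle is Sycp1 at its lower bound. The list medians run from -0.13 (partners of the deadenylase) to 0.65 (germ cell markers), and Sohlh2 at 8.84 and Tex19.1 at 8.52 lie farthest to the right.

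Germ cells themselves were looked for through 16 further marker genes. Of these, 9 were tested, 3 rose and 6 did not pass (median log2 fold change 0.65). Without knockout replicate 1, an analysis chosen after the data were seen, 4 rose. None was lower by edgeR, by DESeq2 or at an unadjusted edgeR p under 0.05. The 3 called with all libraries kept were Piwil2 and Mael, both of the piRNA pathway, and Sohlh2, a transcription factor of early germ cells. Mael and Sohlh2 passed the low-count filter only through the knockout libraries. The share of tested markers that rose is therefore not support for a difference. Sohlh2 had 0.642, 0.017 and 0 CPM against 97.8, 120.0 and 85.8 CPM (edgeR, adjusted p = 0.00489). Heterozygous replicate 1 held 33 of its 34 heterozygous counts, as it held most of those of Dazl, whereas Ddx4 was highest in heterozygous replicate 2. The summed level of the 16 genes was 10.2 to 14.2 CPM in the heterozygous and 108 to 148 CPM in the knockout libraries. Most of the knockout sum came from Sohlh2 alone. The largest part of the heterozygous sum came from Kit, at 4.95 to 9.32 CPM. Among the tested genes that did not pass were Pou5f1, at 0.63 to 1.06 CPM in the heterozygous and 0.424 to 0.891 CPM in the knockout libraries, and Nanog, at 1.51 to 2.18 and 1.26 to 2.19 CPM. Both are pluripotency regulators that primordial germ cells express. Prdm1, which specifies these cells, had 0.418, 0.378 and 0.611 against 2.82, 0.648 and 0.375 CPM. The other 3 were Prdm14, Tcfap2c and Kit, with overlapping groups. The 7 genes under the filter were near the limit of detection and had no test of the groups. Dppa4 had 1, 1 and 0 counts against 4, 10 and 4, and Sohlh1 0, 0 and 0 against 10, 10 and 4, without overlap. Dppa3 had 0, 0 and 1.75 counts against 23, 7 and 1, and Utf1 0, 0 and 2 against 2, 31 and 10, with overlap. Over the summed counts the ratio was 9.34 for Dppa4 (95% counting interval 2.24 to 83.0), 16.1 for Dppa3 (4.09 to 139) and 22.3 for Utf1 (5.81 to 190.0). Sohlh1 was at least 2.75-fold higher against 3 counts per heterozygous library. Such intervals pool the libraries of a group and cover counting error only. The spread among libraries is left out, so they are no test of the groups. Dppa5a had 36 counts in the heterozygous and 20 in the knockout group, Sall4 3 and 5, and Sox2 1 and 7. The ratio was 1.73 for Sall4 (95% counting interval 0.336 to 11.1) and 7.26 for Sox2 (0.933 to 327). Both of these intervals include no change. Of 12 markers of somatic cells of the gonad and adrenal gland, 5 were tested and 0 were called by edgeR or DESeq2, with 1 lower at an unadjusted edgeR p under 0.05. Their sum was 62.9 to 88.3 CPM in the heterozygous and 52.3 to 63.9 CPM in the knockout libraries, most of it from Sox9, which the kidney also expresses. Star, of steroid synthesis, had 4.93 to 6.47 against 3.57 to 6.22 CPM, and Inha, an inhibin subunit, 3.16 to 4.47 against 1.93 to 3.5 CPM. Nr5a1, a regulator of gonad and adrenal development, had 0.817, 1.57 and 1.17 against 0.53, 0.366 and 0.0589 CPM (edgeR, adjusted p = 0.109). Of the genes under the filter, Hsd3b1 had 11 counts in the heterozygous and 43 in the knockout group, Dhh 9 and 22, Insl3 3.3 and 22.1, Cyp11a1 5 and 8.9, Cyp17a1 26 and 19 and Amh 6 and 4, all with overlapping groups, and Foxl2 was at 0 in all 6 libraries. The part of germ cells and of gonad or adrenal cells in the results was not tested.

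The genes closest to Dazl in level over the 6 libraries, by the root mean square difference in log2(TPM + 1), were Zscan4c (0.221), Zfp575 (0.483), Tuba3b (0.586), Xlr3c (0.625) and Tuba3a (0.654). Zscan4c, a zinc finger gene of the 2-cell embryo, had 0.228, 0.0917 and 0 TPM in the heterozygous and 130, 136 and 107 TPM in the knockout libraries. Zscan4c, Xlr3c, Tuba3a and Tuba3b have near-identical copies, so their share of reads is uncertain. Closest to Ddx4 were Mael (0.133), Taf7l (0.181), Abca8a (0.196), Ly6k (0.199) and Xlr5c (0.201). Mael had 0, 0.0135 and 0 TPM against 1.92, 3.06 and 1.94 TPM, and Taf7l, a germ cell homologue of a general transcription factor subunit, 0.0942, 0.0567 and 0 TPM against 2.86, 4.77 and 1.97 TPM.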

How the data were processed

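RNA-seq libraries of sorted cap mesenchyme, 3 heterozygous and 3 knockout by their titles, were analysed. The authors deposited 1 table per library, made with kallisto per the submitters' processing notes, with estimated counts (expected counts, not whole) and TPM for 96626 transcripts. The notes name the build mm10. The kallisto version, like the index annotation, trimming and strandedness, is not given in the sources used here. The deposited transcript and effective lengths in bases served only as an offset.

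GENCODE vM1 (NCBIM37) paired 74519 transcripts with 26567 genes; the other 22107 entered the transcript test only, where CPM were normalised over all transcripts. The estimated counts, summed by gene, were rounded and tested in edgeR 4.0.16 (R 4.3.3; quasi-likelihood) with TMM, filterByExpr, robust dispersions and no covariate, Benjamini-Hochberg adjusted over all features kept. SE is the fitted log2 fold change divided by the root of its F. The common biological coefficient of variation was 0.21. The test was checked on simulated counts, with the outcome not given here. The simulated folds were smaller than those of Dazl and Ddx4, and neither group was nearly silent. The check therefore does not cover Dazl or Ddx4. Within groups, libraries differed beyond sampling noise (chi-square per degree of freedom 14.26 to 43.78). Sex was read from Y-linked genes at 50 CPM. Coordinates and promoters are RefSeq GRCm38.p6; distances to neighbours are NCBIM37.

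Members and lists were chosen with earlier results of these data known. The members and Dnmt1 were always named, then at most 5 tested genes per list by smallest p. The 5 genes nearest Dazl and Ddx4 in log2(TPM + 1) were also named, without predicted genes. Markers are named by their role. Other RNA-binding genes of germ cells under the filter are given with their counts. Alternatives were DESeq2 1.42.0, its size factors, library totals, other filters, limma 3.58.1 voom, length offsets, limma on log2 TPM, the replicate block, sex and each library left out.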

Additional observations from a re-analysis of the deposited data

How the results depend on the processing

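Dazl and Ddx4 were called higher under all 18 alternatives, with log2 fold changes of 6.58 to 12.68 and 1.7 to 6.15; the lowest are from log2(TPM + 1), which compresses low values. Dnd1 was called under 14 of 18, at 0.83 to 1.53, and was lost with log2(TPM + 1) without a filter (0.83; limma, Benjamini-Hochberg adjusted p = 0.149) and without heterozygous replicate 2 or 3 or knockout replicate 2. Nanos3 was called under none (0.14 to 0.69; adjusted p at least 0.367 by edgeR, DESeq2 or limma), nor was Nanos1. Signs turned, in values that were not called, when a library was left out: Nanos1 went from -0.37 to 0.06 by gene and from -0.3 to 0.11 by transcript (0.04 without knockout replicate 2). The Dnd1 transcripts ENSMUST00000124038 and ENSMUST00000155827 went from -1.08 to 0.05 and from -0.25 to 0.98.

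The main test called 836 genes higher and 327 lower, so that 71.9% of calls were higher. DESeq2 called 1356 and 591. Library totals called 731 and 1883 (28.0% higher) and moved the median log2 fold change of all genes to -0.166. Limma on log2(TPM + 1) and log2(TPM + 0.1) with a filter called 457 and 761 and 454 and 756 (37.5% higher, medians -0.126 and -0.142), and without a filter 384 higher (63.6% of calls). With sex as a covariate 162 were lower. With a library left out, 526 (without knockout replicate 2) to 916 genes were higher and 116 (without knockout replicate 2) to 272 lower. For transcripts, 795 were higher and 100 lower (88.8% higher), and with a library left out 363 to 602 and 37 to 65. Library totals called 416 transcripts lower (62.1% higher). The causes were not tested.

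Same-numbered libraries did not deviate together (correlations of -0.068, -0.031 and -0.045). With 3 libraries per group this cannot exclude a shared litter or batch, so whether the numbers mark pairs is not known. The replicate block called 707 genes higher and 265 lower, and 200 transcripts higher and 12 lower. The coding Dnd1 transcript then had an adjusted p of 0.0968 (edgeR).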
